A study of Homo sapiens with 12 samples.

Results

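The nuclear genes that transcribe, copy and package human mitochondrial DNA were followed in LN229 cells exposed to metformin. The set was chosen by name and holds 10 genes, namely TFAM, TFB1M, TFB2M, POLRMT, MTERF1, MTERF2, MTERF3, TWNK, POLG and LRPPRC, out of 21446 genes in the tables. All 10 were found in every library and passed the filter of a mean of at least 1 TPM, as did 11306 genes in all. TPM divides reads by exon length and is scaled to a common total per library, which makes it a level relative to all other transcripts.

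LN229 is an established human glioblastoma line, labelled IDH wildtype, and metformin is a biguanide drug of type 2 diabetes known to inhibit respiratory complex I. The metformin group held 6 libraries from cells given 100 mM metformin for 5 h, and the control group held 6 libraries from cells labelled as given no treatment. The time comes from the study's figure legend, which calls the control cells vehicle-treated. Cells of both groups grew in DMEM with fetal bovine serum and antibiotics. The study calls the libraries independent experiments on this one line, so p-values measure the spread between these cultures and say nothing of other glioblastoma cells.

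Mitochondrial DNA is a small circle transcribed from both strands by a single-subunit polymerase, POLRMT. TFAM binds and bends the promoters, and it also coats the whole molecule into the compact body called the nucleoid. TFB2M opens the promoter for POLRMT, while its relative TFB1M methylates the small ribosomal RNA of the mitochondrial ribosome. The MTERF family binds mitochondrial DNA or ribosomal RNA, POLG and the helicase TWNK copy the DNA, and LRPPRC holds the finished messenger RNAs stable. All of these proteins are encoded in the nucleus and imported.

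Exon reads totalled 14331617 in metformin replicate 1 and 18525144 to 19516144 in the other metformin libraries, against 19583535 to 21836186 in control libraries. Metformin replicate 1 stood apart from the other libraries. It had 620866 intron reads, the fewest of the 12, and 38.07% of its exon reads crossed an exon junction, against 45.66% to 48.12% in the other metformin libraries and 44.68% to 46.68% in control. Results are therefore given with and without it. Of 7 glial and mesenchymal markers VIM, NES, CD44 and OLIG2 were detected, and SOX2, S100B and GFAP were below 1 TPM in every library. Their summed level ranged from 567 to 1429 TPM in metformin and from 1192 to 1267 TPM in control. Of 10 markers of other cell types 8 were below 1 TPM in every library, with CD68 and RBFOX3 above it, and their sum ranged from 12.01 to 34.1 TPM in metformin and from 27.7 to 30.1 TPM in control. In bulk libraries, fewer cells of a type and less RNA per cell cannot be told apart.

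In metformin, 5 of the 10 genes fell and none rose at an adjusted p under 0.05 (limma on log2(TPM + 1), Benjamini-Hochberg over all genes tested). The genes that fell were MTERF1, MTERF3, TFB1M, POLRMT and TFB2M, that is, 2 MTERF proteins, the polymerase and both TFB factors. Among all genes tested the same fit called 8.00% higher and 41.8% lower, so a fall in 5 of 10 was near the share in the whole transcriptome. The median log2 fold change was -0.55 for the 10 genes and -0.37 for all genes tested. Fold changes on this scale understate the change of genes of low level. The same 5 genes were those whose TPM in all metformin libraries lay below all control libraries, as did 37.3% of genes tested. Without metformin replicate 1 the count was 2 higher, TFAM and POLG, and 6 lower, with TWNK added, where the fit called 17.1% of all genes higher and 49.3% lower.

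The scaling of the libraries set part of these counts. Dividing each library by the median of its ratios to a geometric mean library (median-ratio scaling) brought the median of all genes tested, -0.37 before, to 0.01. On that scale 4 of the 10 genes fell (MTERF1, MTERF3, TFB1M and TFB2M) and POLG rose, while 22.7% of all genes were called higher and 25.9% lower. POLRMT, at -0.29, no longer passed (limma adjusted p = 0.106). The edgeR quasi-likelihood test on exon reads called the same 4 genes lower and POLG and TFAM higher, with 24.5% of all genes called higher and 26.0% lower. Scaling all libraries by the median ratio and then leaving out metformin replicate 1 gave 3 higher (TFAM, POLG and LRPPRC) and 5 lower (the 5 genes of the first count). The shares of all genes were 33.5% and 33.6%. The scaling itself thus still used metformin replicate 1. Hence 4 falls, those of MTERF1, MTERF3, TFB1M and TFB2M, passed on both scales and with both tools when all libraries were used.

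**Figure D1:**
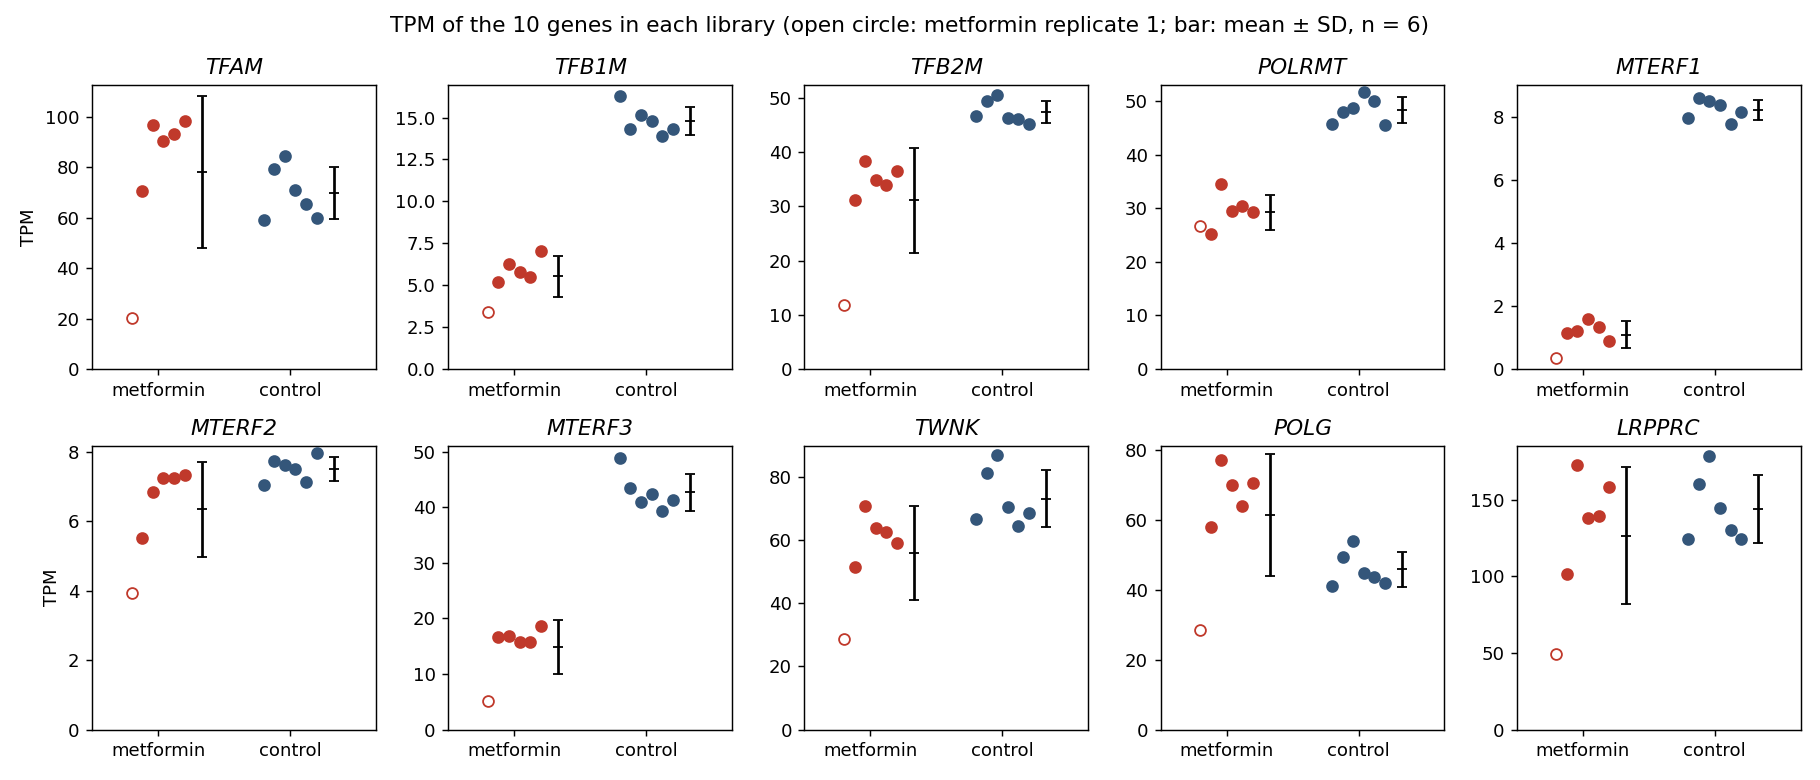
TPM of each gene in each library, with metformin to the left and control to the right. Each point is 1 library, the open circle is metformin replicate 1, and the bar gives the mean and SD of 6 libraries. The metformin points of MTERF1, MTERF3, TFB1M, TFB2M and POLRMT lie below all their control points, and metformin replicate 1 is the lowest library of its group for every gene but POLRMT.

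Initiation of mitochondrial transcription needs TFAM, TFB2M and POLRMT. TFAM (ENSG00000108064, chromosome 10, 58385345 to 58399220, plus strand in the files' human coordinates) had a lowest value of 20.4, a median of 91.8 and a highest value of 98.3 TPM in metformin, against 59.3, 68.1 and 84.6 TPM in control. The lowest metformin value is replicate 1, and the ranges overlapped with or without it. TFAM averaged 78.2 ± 30.1 TPM in metformin and 69.9 ± 10.4 TPM in control (SD, n = 6 each). The difference was 0.01 on the log2 scale (SE 0.33, limma adjusted p = 0.975). Without metformin replicate 1 the metformin mean was 89.8 ± 11.2 TPM (n = 5), and the log2 fold change of 0.36 (SE 0.11) passed the test (limma adjusted p = 0.011). After median-ratio scaling of all libraries TFAM stood at 0.43 (SE 0.18, limma adjusted p = 0.062) and in edgeR at 0.47 (SE 0.17, adjusted p = 0.041). No setting with a call gave a fall in TFAM transcript.

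TFB2M (ENSG00000162851, chromosome 1, 246540561 to 246566261, minus strand), the factor that opens the promoter, had a lowest value of 11.9, a median of 34.4 and a highest value of 38.3 TPM in metformin, against 45.3, 46.5 and 50.5 TPM in control. The groups did not overlap, and the 11.9 TPM of metformin replicate 1 was far below the other 5 metformin libraries. TFB2M fell by 0.68 on the log2 scale (SE 0.23, limma adjusted p = 0.029) and by 0.43 without that library (SE 0.06, limma adjusted p = 2.4e-05). After median-ratio scaling it stood at -0.27 (SE 0.09, limma adjusted p = 0.033), and at -0.18 when that library was also left out (limma adjusted p = 0.0018). Leaving out control replicate 2 or 3 instead took the adjusted p to 0.055 and 0.056 in the same limma fit. POLRMT (ENSG00000099821, chromosome 19, 617221 to 633537, minus strand), the polymerase itself, had 25.1, 29.4 and 34.4 TPM as lowest, median and highest value in metformin, against 45.5, 48.3 and 51.7 TPM in control. No metformin library reached the control range, and metformin replicate 1, at 26.6 TPM, lay inside its own group. POLRMT fell by 0.71 on the log2 scale (SE 0.08, limma adjusted p = 1.8e-05), and by 0.68 without metformin replicate 1 (limma adjusted p = 2.5e-06). Its call was lost after median-ratio scaling of all 12 libraries, as given above, and in edgeR (-0.29, SE 0.14, adjusted p = 0.111). With metformin replicate 1 left out, the scaled value was -0.43 (SE 0.06, limma adjusted p = 1.8e-05).

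TFB1M (ENSG00000029639, chromosome 6, 155256134 to 155314493, minus strand), the ribosomal RNA methyltransferase, had a lowest value of 3.40, a median of 5.65 and a highest value of 7.01 TPM in metformin, against 13.9, 14.6 and 16.3 TPM in control. The highest metformin library was below the lowest control library by a wide margin. TFB1M averaged 5.53 ± 1.22 TPM in metformin and 14.8 ± 0.86 TPM in control (SD, n = 6 each). It fell by 1.30 on the log2 scale (SE 0.13, limma adjusted p = 5.0e-06), by 1.19 without metformin replicate 1 and by 0.92 after median-ratio scaling. The gene overlaps TIAM2 and CLDN20 on the other strand, both below 1 TPM on average in either group, and the annotated antisense entry AL596202.1 on its own strand. The sources used here do not say whether counting used strand, so reads of overlapping genes cannot be told apart.

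The 250 bases before and 50 bases after the annotated start were taken from RefSeq on GRCh38.p14, where 8 of the 10 genes had such a window (TFAM, TFB1M, TFB2M, POLRMT, MTERF1, MTERF2, POLG and LRPPRC). The letters of 3 short motifs were searched on both strands. These were the motif of NRF1, the nuclear respiratory factor known to drive TFAM, CCGGAAG for the ETS family that includes GABP, and GGGCGG for Sp1. Capitals mark the matches. Shown are the windows of TFB1M (chr6:155314435-155314734, minus strand) and MTERF1 (chr7:91880653-91880952, minus strand), which fell in metformin, and of TFAM (chr10:58385160-58385459, plus strand) and POLG (chr15:89334775-89335074, minus strand), which did not.
TFB1M: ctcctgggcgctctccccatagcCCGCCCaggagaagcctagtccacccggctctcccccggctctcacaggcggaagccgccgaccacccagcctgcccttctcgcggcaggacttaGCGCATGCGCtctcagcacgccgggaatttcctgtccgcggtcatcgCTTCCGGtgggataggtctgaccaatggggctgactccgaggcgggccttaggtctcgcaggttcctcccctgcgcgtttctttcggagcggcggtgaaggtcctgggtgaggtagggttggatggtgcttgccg
MTERF1: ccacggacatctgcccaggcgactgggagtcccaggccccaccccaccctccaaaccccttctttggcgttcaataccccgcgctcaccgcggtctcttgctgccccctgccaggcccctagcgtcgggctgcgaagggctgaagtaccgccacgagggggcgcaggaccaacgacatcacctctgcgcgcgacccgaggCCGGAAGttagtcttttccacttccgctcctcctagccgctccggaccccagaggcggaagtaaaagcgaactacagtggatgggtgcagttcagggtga
TFAM: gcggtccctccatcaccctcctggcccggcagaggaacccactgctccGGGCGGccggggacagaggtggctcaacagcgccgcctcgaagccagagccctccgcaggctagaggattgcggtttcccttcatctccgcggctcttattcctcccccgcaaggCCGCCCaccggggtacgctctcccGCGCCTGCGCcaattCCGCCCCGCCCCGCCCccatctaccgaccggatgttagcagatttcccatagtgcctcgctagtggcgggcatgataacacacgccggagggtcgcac
POLG: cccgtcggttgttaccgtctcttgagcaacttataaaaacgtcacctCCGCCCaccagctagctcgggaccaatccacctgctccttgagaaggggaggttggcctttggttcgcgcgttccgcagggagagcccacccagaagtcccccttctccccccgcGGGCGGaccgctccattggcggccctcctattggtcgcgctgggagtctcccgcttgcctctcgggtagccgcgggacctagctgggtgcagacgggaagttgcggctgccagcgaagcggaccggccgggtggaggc

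The NRF1 motif stood in the windows of TFAM, TFB1M and POLRMT, 3 of 8, and in 5.78% of 35116 windows of all genes. Counted from the start site, the match began at base -63 in TFAM and at base -132 in TFB1M. POLRMT held a pair of overlapping matches, which began at bases -24 and -18. The ETS letters were found in TFB1M, MTERF1 and POLRMT, 3 of 8, and in 10.3% of all windows. The Sp1 letters were found in 6 of 8, the exceptions being MTERF1 and LRPPRC, and in 45.0% of all windows. A match describes the letters only.

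Of the 3 MTERF genes of the set MTERF1 and MTERF3 fell and MTERF2 did not pass. MTERF1 (ENSG00000127989, chromosome 7, 91692008 to 91880702, minus strand), which binds mitochondrial DNA just past the ribosomal RNA genes and can stop transcription there, had a lowest value of 0.35, a median of 1.16 and a highest value of 1.596 TPM in metformin, against 7.76, 8.26 and 8.59 TPM in control. Every metformin library was far below every control library. MTERF1 averaged 1.08 ± 0.43 TPM in metformin and 8.21 ± 0.32 TPM in control (SD, n = 6 each), and fell by 2.18 on the log2(TPM + 1) scale (SE 0.14, limma adjusted p = 8.2e-08). On exon reads, where no constant is added to the level, edgeR gave -2.58 (SE 0.16, adjusted p = 5.9e-08), which is 5.99-fold lower. Its fall was the largest of the 10 genes under all 4 fits drawn in the plot of fold changes.

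MTERF3 (ENSG00000156469, chromosome 8, 96239398 to 96261610, minus strand), known as a negative regulator of mitochondrial transcription and a factor of ribosome assembly, had 5.13, 16.2 and 18.7 TPM as lowest, median and highest value in metformin, against 39.4, 41.9 and 48.9 TPM in control. The groups were apart, and metformin replicate 1 gave the 5.13 TPM. MTERF3 fell by 1.56 on the log2 scale (SE 0.24, limma adjusted p = 0.00018), by 1.30 without that library and by 1.16 after median-ratio scaling. MTERF2 (ENSG00000120832, chromosome 12, 106977277 to 106987160, minus strand), which binds mitochondrial DNA with little preference for sequence, had 3.92, 7.03 and 7.32 TPM in metformin, against 7.04, 7.56 and 7.97 TPM in control. The highest metformin libraries reached into the control range. Its log2 fold change was -0.23 (SE 0.13, limma adjusted p = 0.160), and 0.13 after median-ratio scaling (limma adjusted p = 0.144). MTERF2 stood at 0.32 after quantile normalization, where it passed (limma adjusted p = 0.014).

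POLG (ENSG00000140521, chromosome 15, 89305198 to 89334861, minus strand), the catalytic subunit of the only polymerase that replicates mitochondrial DNA, had a lowest value of 28.6, a median of 67.1 and a highest value of 77.2 TPM in metformin, against 41.2, 44.4 and 54.1 TPM in control. The 28.6 TPM was metformin replicate 1, and the other 5 metformin libraries, at 58.1 TPM or more, were all above control. POLG averaged 61.5 ± 17.4 TPM in metformin and 45.9 ± 4.94 TPM in control (SD, n = 6 each), with a log2 fold change of 0.36 (SE 0.20, limma adjusted p = 0.167). It rose by 0.56 without metformin replicate 1 (SE 0.08, limma adjusted p = 7.7e-05), by 0.77 after median-ratio scaling of all libraries (SE 0.06, limma adjusted p = 4.4e-07) and by 0.77 in edgeR (SE 0.07, adjusted p = 1.3e-06). FANCI, a Fanconi anemia gene on the other strand, overlaps 12064 bp of POLG and averaged 64.0 ± 19.2 TPM in metformin and 94.3 ± 11.9 TPM in control, with a log2 difference of -0.61 (limma adjusted p = 0.029). Of the exon reads of POLG, 62.9% were marked unique in metformin replicate 1, 84.3% to 90.7% in the other metformin libraries and 87.1% to 91.7% in control. On unique exon reads alone POLG rose by 0.69 in edgeR (SE 0.12, adjusted p = 0.00041).

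TWNK (ENSG00000107815, chromosome 10, 100987367 to 100994403, plus strand), the helicase that unwinds the DNA ahead of POLG, had 28.6, 60.7 and 70.9 TPM as lowest, median and highest value in metformin, against 64.6, 69.5 and 86.9 TPM in control. The ranges overlapped at their edges. Its log2 fold change was -0.42 (SE 0.19, limma adjusted p = 0.080), -0.24 without metformin replicate 1 (limma adjusted p = 0.035) and -0.003 after median-ratio scaling. LRPPRC (ENSG00000138095, chromosome 2, 43886224 to 43995989, minus strand), which with SLIRP binds and stabilizes mitochondrial messenger RNAs, had 49.1, 139 and 173 TPM in metformin, against 124, 138 and 179 TPM in control. The medians were close and the spread within each group was wide. LRPPRC stood at -0.27 (SE 0.26, limma adjusted p = 0.398) and at -0.03 without metformin replicate 1. With all libraries scaled by the median ratio and that library then left out, its value was 0.23 (limma adjusted p = 0.018).

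**Figure D2:**
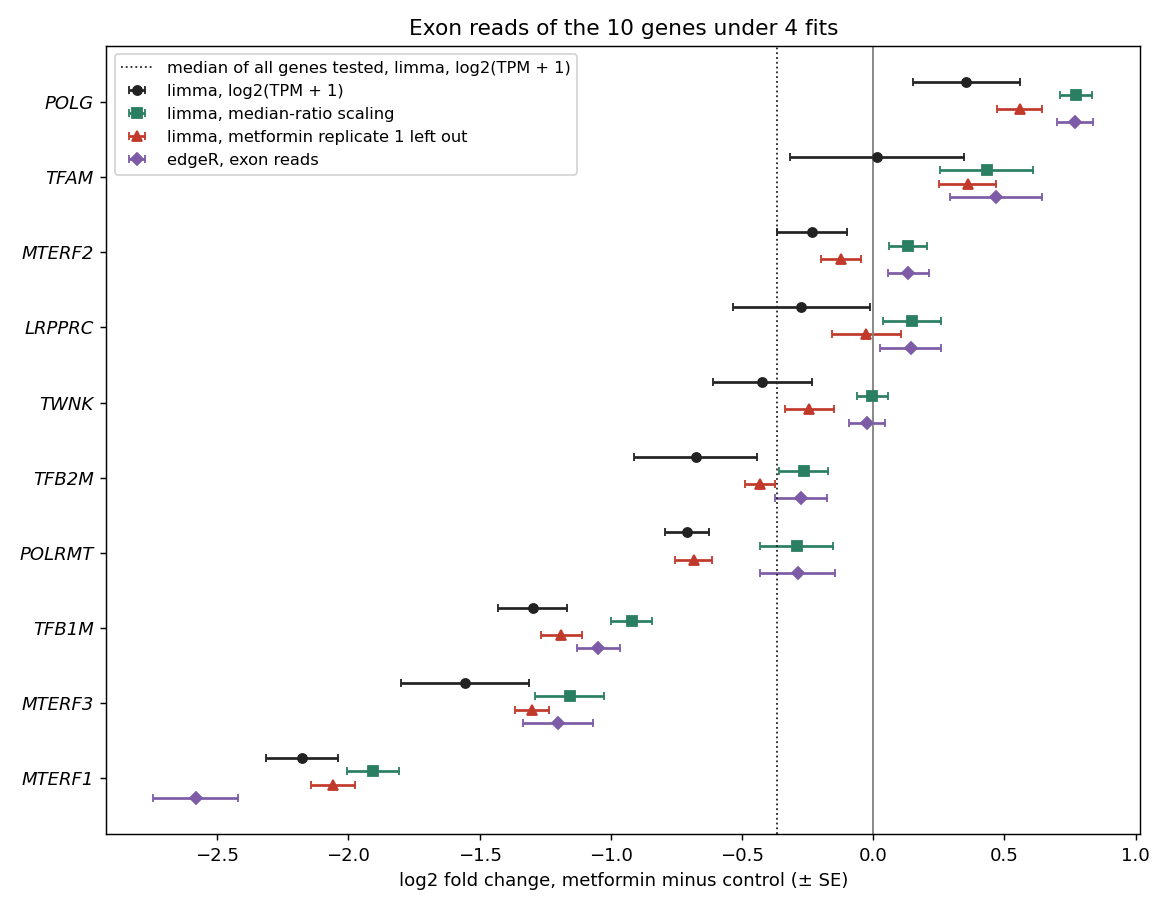
Log2 fold change of exon signal, metformin minus control, with its SE for each gene under 4 fits. Points left of 0 are lower in metformin, and the dotted line is the median of all genes tested in the first fit, -0.37. MTERF1, MTERF3 and TFB1M lie left of that line in all 4 fits, while POLG lies right of 0 in all 4, between 0.36 and 0.77.

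In control cells the levels per length ordered LRPPRC (144 TPM), TWNK (73.0), TFAM (69.9), POLRMT (48.2), TFB2M (47.4), POLG (45.9), MTERF3 (42.7), TFB1M (14.8), MTERF1 (8.21) and MTERF2 (7.499). Neighbours whose ranges over the 6 libraries overlapped were TWNK and TFAM, POLRMT and TFB2M, TFB2M and POLG, POLG and MTERF3, and MTERF1 and MTERF2. In metformin the order by mean was LRPPRC, TFAM, POLG, TWNK, TFB2M, POLRMT, MTERF3, MTERF2, TFB1M and MTERF1. POLG held place 3 in metformin against place 6 in control, and MTERF1 place 10 against place 9. The 10 genes summed to 411 ± 125 TPM in metformin and 502 ± 48.2 TPM in control (SD, n = 6 each), and LRPPRC alone gave 127 ± 44.9 TPM of this in metformin and 144 ± 22.1 TPM in control.

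The tables also count reads in introns, which are found mostly in transcripts not yet spliced. Intron reads of the 10 genes were compared with edgeR among the 11118 genes whose intron reads averaged 10 or more. In metformin, 5 genes rose (MTERF2, TFB2M, POLG, LRPPRC and POLRMT), 3 fell (TFB1M, MTERF3 and MTERF1), and TFAM and TWNK did not pass. Among all genes tested 31.3% were called higher and 30.2% lower. Intron levels, in the values that follow, are reads per 1000000 intron reads of the library. The share of all genes whose intron levels do not overlap between the groups was not computed. Without metformin replicate 1 TFAM rose as well, which made 6 higher and 3 lower, against 36.4% and 38.0% of all genes.

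TFB1M had a lowest value of 1.61, a median of 6.197 and a highest value of 12.01 in metformin, against 74.0, 100 and 126 in control. In raw counts this was 1 to 16 intron reads per metformin library and 85 to 196 per control library, with no overlap. Intron reads of TFB1M fell by 3.63 on the log2 scale (SE 0.25, edgeR adjusted p = 3.8e-08), against a fall of 1.05 in its exon reads in the same kind of fit. MTERF3 had 6.44, 14.2 and 17.3 in metformin, against 58.4, 62.5 and 72.9 in control. All metformin libraries were below control, and the fall was 1.99 (SE 0.17, edgeR adjusted p = 2.2e-07). MTERF1 had 8.08, 11.5 and 14.2 in metformin, against 35.5, 40.1 and 52.2 in control. It fell by 1.70 in introns (SE 0.19, edgeR adjusted p = 3.2e-06), and metformin replicate 1 lay within its group here.

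MTERF2 had a lowest value of 27.4, a median of 65.2 and a highest value of 78.1 in metformin, against 12.02, 14.2 and 16.6 in control. On this scale every metformin library was above every control library, while the exon level of the gene did not pass. In raw counts metformin libraries had 17 to 113 intron reads and control libraries 15 to 23. The 17 was metformin replicate 1, inside the control range. Intron reads of MTERF2 rose by 2.33 on the log2 scale (SE 0.20, edgeR adjusted p = 2.9e-07). CRY1, a circadian repressor gene that ends 4204 bp upstream on the same strand, averaged 77.5 ± 37.4 TPM in metformin and 39.0 ± 4.96 TPM in control (SD, n = 6 each, log2 fold change 0.62, limma adjusted p = 0.352). TMEM263, on the other strand, overlaps MTERF2 by 1502 bp and fell by 0.78 (limma adjusted p = 0.012). The part of either neighbour in the intron reads of MTERF2 was not tested.

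TFB2M had 22.6, 119 and 148 in metformin, against 45.3, 56.5 and 82.2 in control, and the lowest of these was metformin replicate 1. The other 5 metformin libraries, at 109 or more, were above control. In raw counts they had 103 to 220 intron reads, which overlapped the 52 to 115 of control. TFB2M rose by 1.09 in introns (SE 0.29, edgeR adjusted p = 0.0042). POLG had 134, 450 and 511 in metformin, against 221.2, 237.3 and 249.1 in control, with metformin replicate 1 again alone below, and rose by 1.00 (SE 0.22, edgeR adjusted p = 0.0013). LRPPRC had 349 to 411 in metformin, against 222 to 273 in control. POLRMT had 64.6 to 88.6 in metformin, against 40.8 to 53.5 in control. In both genes the groups did not overlap on this scale, but their raw intron reads overlapped. These were 255 to 611 in metformin against 253 to 425 in control for LRPPRC. For POLRMT they were 55 to 115 against 57 to 74. LRPPRC rose by 0.84 (SE 0.12) and POLRMT by 0.82 (SE 0.15) in introns. TFAM, with a median of 51.1 in metformin against 34.97 in control, gave 0.48 (SE 0.33, edgeR adjusted p = 0.217), and 0.66 (SE 0.15, adjusted p = 0.00084) without metformin replicate 1, which held 2 intron reads of this gene. TWNK gave -0.08 (SE 0.22).

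**Figure D3:**
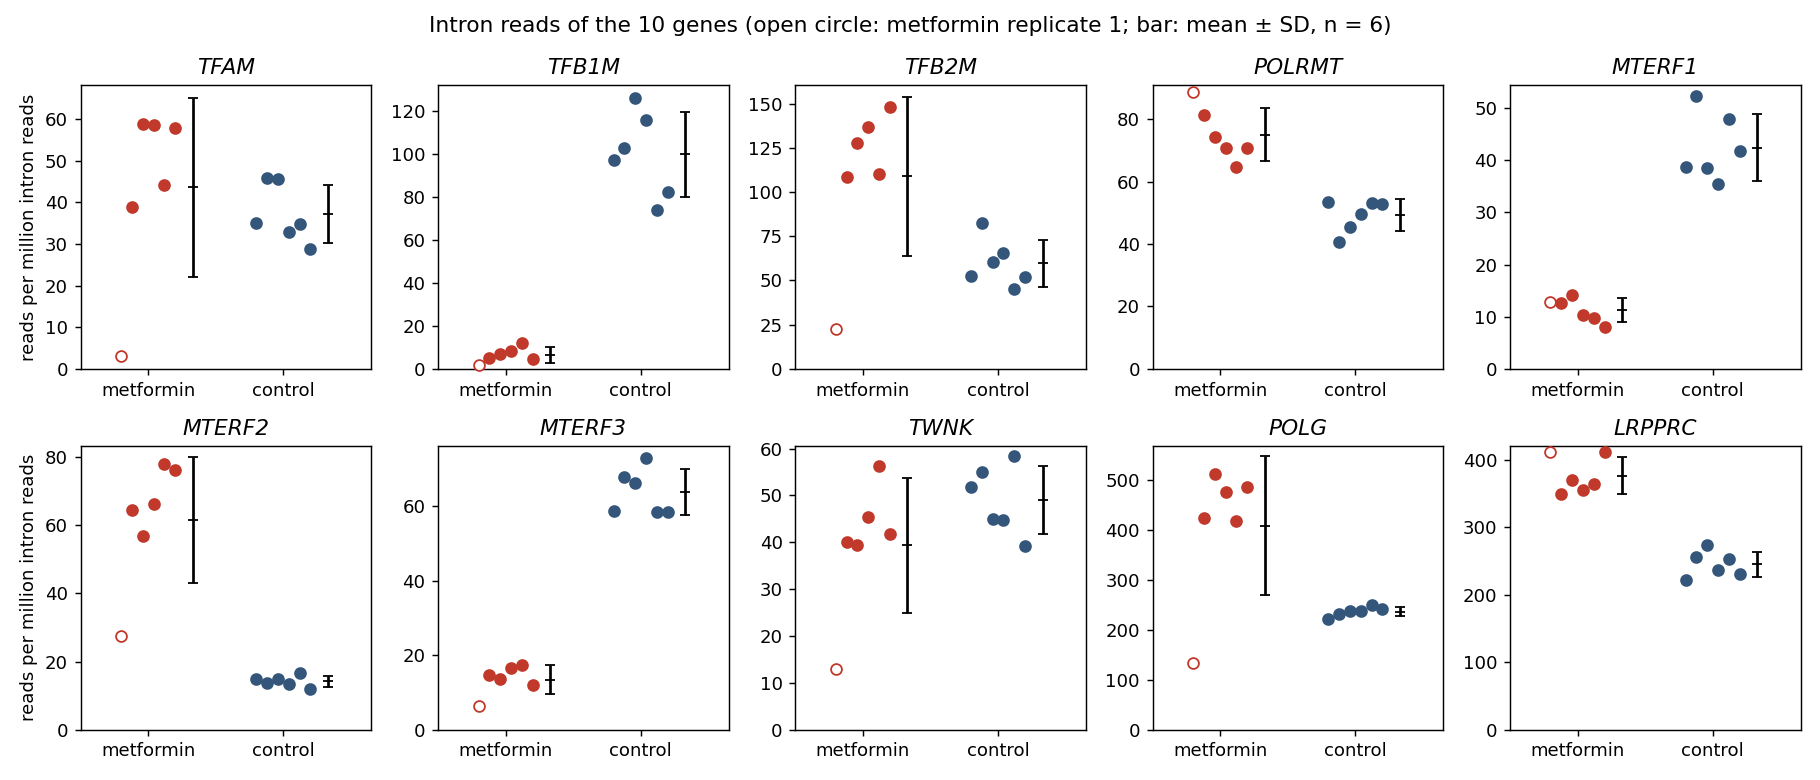
Intron reads of each gene per 1000000 intron reads of the library, with metformin left and control right. Each point is 1 library, the open circle is metformin replicate 1, and the bar gives the mean and SD of 6 libraries. MTERF2, POLRMT and LRPPRC lie above control in all metformin libraries, and TFB1M, MTERF1 and MTERF3 below control in all of them. In raw intron reads MTERF2, POLRMT and LRPPRC overlap with control.

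Exon and intron reads of a gene come from the same library, so their ratio is free of library size. It still carries the intron share of each library, which ran from 4.152% to 7.484% of gene reads. The log2 ratio was compared with limma among 9917 genes. It rose in TFB1M alone and fell in MTERF2, TFB2M, POLRMT, MTERF1 and LRPPRC, 1 higher and 5 lower of 10, against 13.8% higher and 18.6% lower of all genes tested. The median of all genes tested was -0.12. With the median of all genes subtracted in each library the count was 2 higher and 5 lower. The share of all genes in that fit is not given here. TFB1M stood at 2.45 (SE 0.38, limma adjusted p = 0.00039), its introns having fallen by more than its exons. MTERF2 stood at -2.24 (SE 0.30, limma adjusted p = 0.00012), with introns higher and no call in its exons. TFB2M stood at -1.36 (SE 0.38), POLRMT at -1.30 (SE 0.19), MTERF1 at -1.17 (SE 0.25) and LRPPRC at -0.87 (SE 0.18). MTERF3, at 0.61 (SE 0.24, limma adjusted p = 0.069), POLG, at -0.28, TFAM, at 0.14, and TWNK, at 0.003, did not pass. Without metformin replicate 1 POLG fell as well (-0.56, limma adjusted p = 0.0076), where 21.5% of all genes were called higher and 34.6% lower.

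TFB2M and POLRMT had a lower exon level in TPM and more intron reads in metformin, whereas MTERF1 and MTERF3 had less of both. In edgeR, the tool used for the intron reads, exon reads of TFB2M stood at -0.28 (adjusted p = 0.033). Those of POLRMT stood at -0.29 and did not pass (edgeR adjusted p = 0.111). Intron reads were 30.5% ± 8.76 of all gene reads of MTERF2 in metformin and 8.03% ± 1.59 in control (SD, n = 6 each). For TFB1M the share was 6.77% ± 4.00 in metformin and 28.6% ± 7.59 in control. For POLRMT it was 9.55% ± 1.83 in metformin and 4.05% ± 0.50 in control. Gene models whose introns hold exons of other genes, as in POLG and TFB1M, can take reads of those genes.

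**Figure D4:**
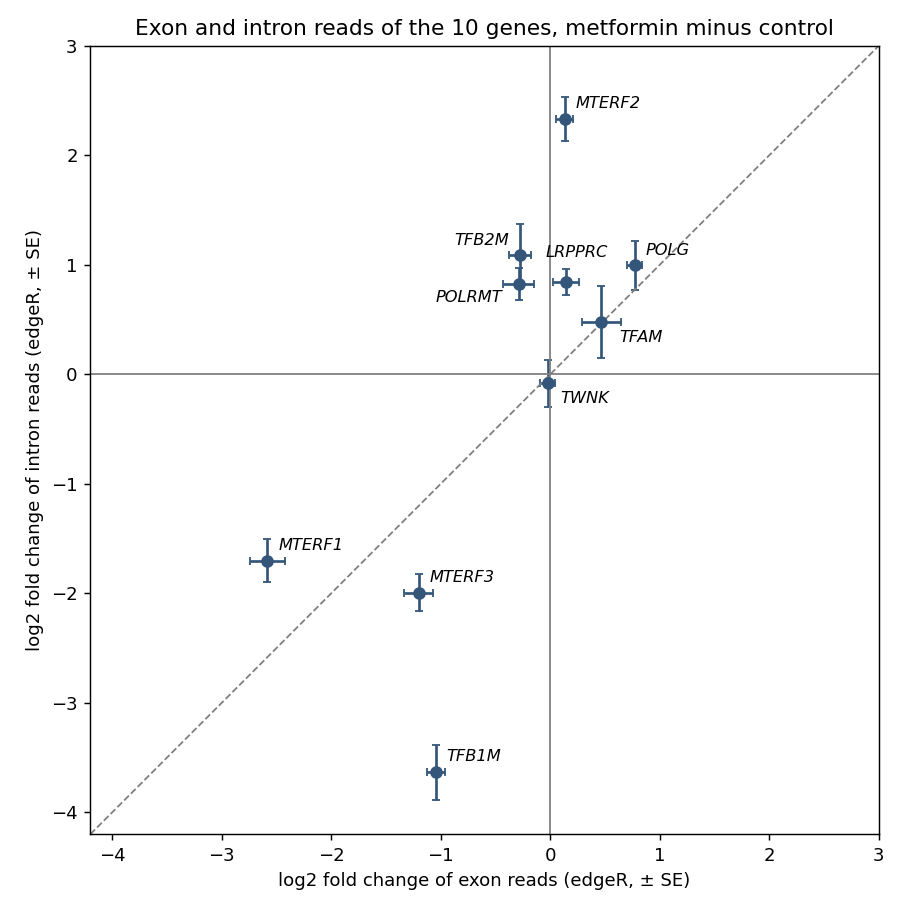
Log2 fold change of intron reads against that of exon reads, both metformin minus control from edgeR, with SE bars and 1 point per gene. The dashed line marks equal change. MTERF1, MTERF2, TFB2M, POLRMT and LRPPRC lie above it by more than their SE. TFB1M lies far below it at -1.05 in exons and -3.63 in introns, and MTERF3 lies below it at -1.20 and -1.99.

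A junction read crosses a splice site and so comes from spliced RNA. The share of exon reads that crossed a junction was compared by an exact permutation test over the 12 libraries, two-sided, 1 test per gene for 10 genes and with no adjustment. At an unadjusted p under 0.05, 4 of the 10 genes were lower in metformin and none was higher, where the same test put 5.92% of 11164 genes lower and 2.72% higher. TFB2M had 41.8% ± 11.5 in metformin and 51.2% ± 2.57 in control (SD, n = 6 each), a difference of -9.43 points (exact p = 0.0022, the smallest that 6 against 6 allows), and of -4.75 points without metformin replicate 1 (exact p = 0.0065). MTERF2 had 5.40% ± 1.503 in metformin and 9.92% ± 3.05 in control (exact p = 0.0022), a difference of -4.53 points, or -4.02 without that library (exact p = 0.0087). TWNK had 12.95% ± 4.79 in metformin and 16.2% ± 0.65 in control (exact p = 0.0022), a difference of -3.20 points, or -1.25 without that library (exact p = 0.0065). In these 3 genes all metformin libraries were below control, as in 1.42% of all genes, and the groups did not overlap without metformin replicate 1 either, as in 1.47%. POLG had 50.9% ± 16.3 in metformin and 60.2% ± 1.30 in control (exact p = 0.0087), a difference of -9.35 points, or -2.76 without metformin replicate 1 (exact p = 0.013). The p of POLG ran from 0.0844 to 0.136 when any 1 control library was left out. The exact p of the other 6 genes ran from 0.530 to 0.983. Without metformin replicate 1 TFAM had 35.0% ± 1.92 in metformin (n = 5), all above the 28.9% ± 1.22 of control (exact p = 0.0022), as in 2.72% of all genes. Without that library the counts were 1 higher and 4 lower of 10, beside 8.40% and 4.39% of all genes.

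Other genes of mitochondrial gene expression were followed in lists by role. Beside the counts in these lists, limma on log2(TPM + 1) called 8.00% of all genes higher and 41.8% lower. In replication and repair of mitochondrial DNA, 7 of 12 genes fell and 1 rose. The gene that rose was POLG2, the accessory subunit that clamps POLG to DNA, with 26.5 ± 5.67 TPM in metformin and 15.3 ± 0.48 TPM in control (log2 fold change 0.73, SE 0.14, limma adjusted p = 0.00077). After median-ratio scaling POLG2 stood at 1.14 and POLG at 0.77, so that both subunits of the polymerase passed upward. EXOG, a mitochondrial nuclease, fell by 0.87, LIG3, the ligase that seals mitochondrial DNA, by 1.00, and DNA2, a nuclease and helicase, by 1.39. In the supply of nucleotides 2 of the 10 genes tested fell, and ABAT was below the filter. These were TK2, the mitochondrial thymidine kinase, at -0.87, and MPV17 at -0.22. Among nucleoid-associated proteins and proteases 2 of 7 fell, LONP1, which degrades TFAM that is not bound to DNA, at -0.40, and CLPX, an unfoldase, at -1.18. After median-ratio scaling TK2 (-0.59) and CLPX (-0.79) still passed. MPV17, at 0.19 (limma adjusted p = 0.282), and LONP1, at 0.02 (limma adjusted p = 0.891), did not.

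Where the same fit called 41.8% of all genes lower, 3 of 4 genes of elongation and termination fell. These were TEFM, the elongation factor of POLRMT, at -1.21, MTERF4, the remaining MTERF protein, which brings a methyltransferase to the ribosome, at -1.43, and MTRES1 at -1.41. In RNA processing 6 of 10 fell, with FASTKD3 at -1.82, TRMT10C, a subunit of mitochondrial RNase P, at -1.28, and FASTK at -0.80. FASTK did not pass after median-ratio scaling (-0.38, limma adjusted p = 0.175). In RNA stability and decay 6 of 12 fell, with DDX28, an RNA helicase of ribosome assembly, at -2.37, PTCD2 at -1.38 and DHX30 at -0.85. SLIRP, the partner of LRPPRC, stood at 0.25 (SE 0.20, limma adjusted p = 0.320). In modification of mitochondrial ribosomal RNA, the class to which TFB1M belongs, 12 of 12 fell, with MRM2 at -1.47, MRM1 at -1.33 and MRM3 at -0.86. After median-ratio scaling 7 of the 12 fell, beside 25.9% of all genes. No gene rose in any of these lists but POLG2.

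The list counts moved with the scaling and with metformin replicate 1. In replication and repair 2 genes rose and 5 fell after median-ratio scaling, and 1 rose and 9 fell on the unscaled values without metformin replicate 1. In nucleotide supply 1 gene fell after scaling, and 1 rose and 2 fell without that library. Among nucleoid proteins 1 fell after scaling and 4 fell without it. In elongation and termination 3 fell after scaling and 4 fell without it. In RNA processing 2 rose and 4 fell after scaling, and 1 rose and 7 fell without it. In RNA stability 1 rose and 5 fell after scaling, and 1 rose and 8 fell without it. In ribosomal RNA modification 7 fell after scaling and 12 fell without it, with no gene higher in either fit. Beside these counts, the share of all genes was 22.7% higher and 25.9% lower after scaling, and 17.1% and 49.3% without metformin replicate 1. On the first scale the list median was lowest in elongation and termination, at -1.31, and highest in nucleotide supply, at -0.09, beside -0.37 for all genes tested.

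**Figure D5:**
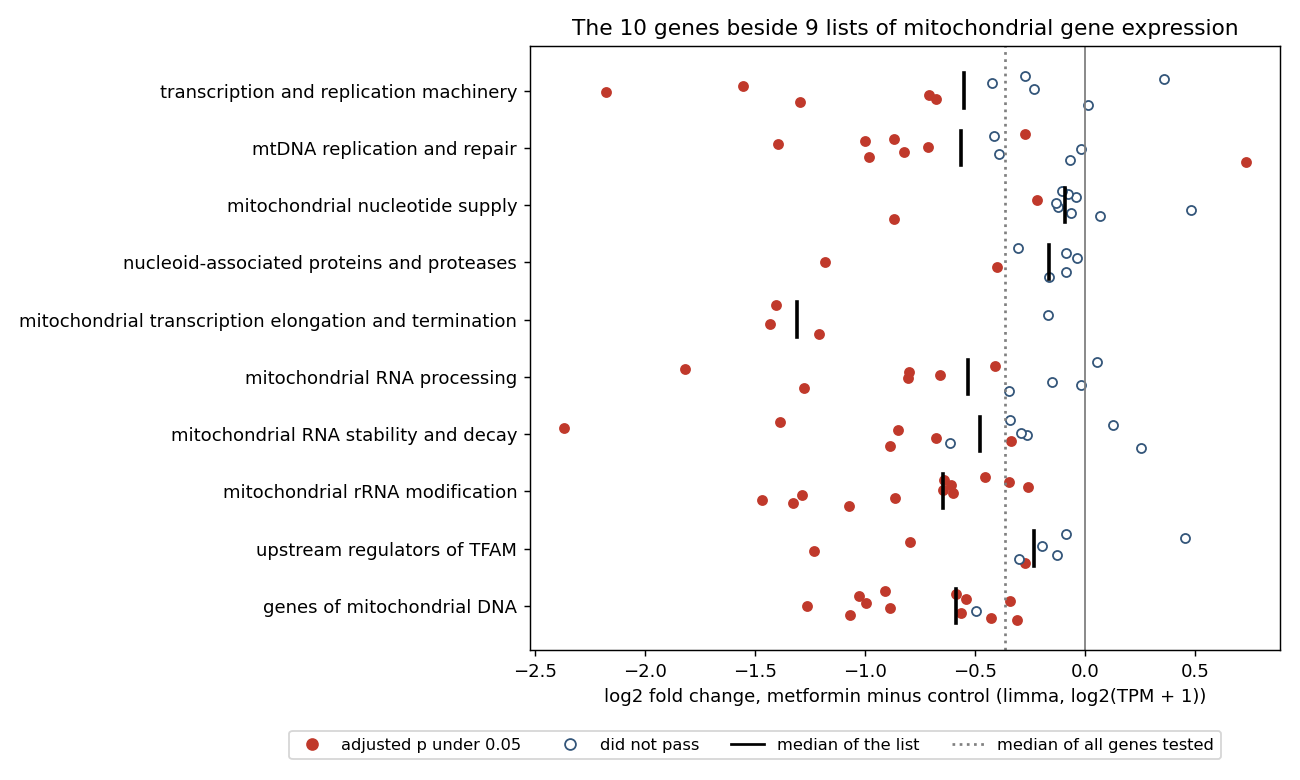
Log2 fold change, metformin minus control, of the 10 genes and of 9 lists of mitochondrial gene expression, 1 point per gene from limma on log2(TPM + 1). Filled points passed at an adjusted p under 0.05, short lines are list medians and the dotted line is the median of all genes tested. POLG2, at 0.73, is the only filled point right of 0, a count that scaling by the median ratio raises.

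Of the known upstream regulators of TFAM 3 of 8 tested fell, where the same fit called 41.8% of all genes lower. The 3 were PPARGC1B, by 1.23, ESRRA, by 0.79, and NRF1, at the edge of the threshold, by 0.27 (limma adjusted p = 0.0496). PPARGC1A, at a mean of 0.0025 TPM in metformin and 0.0024 TPM in control, was far under the filter of 1 TPM. Its median was 0 in both groups. After median-ratio scaling 2 of the 8 fell, PPARGC1B (-0.99) and ESRRA (-0.38), beside 25.9% of all genes. NRF1 then stood at 0.13 (limma adjusted p = 0.300). YY1, a transcription factor with targets in mitochondrial metabolism, rose by 0.87 on that scale (limma adjusted p = 1.8e-07), beside 22.7% of all genes called higher. Without metformin replicate 1 the count was 1 higher, YY1 at 0.66, and 3 lower, beside 17.1% and 49.3% of all genes. With both changes it was 3 higher and 2 lower, beside 33.5% and 33.6%. YY1 averaged 76.9 ± 22.2 TPM in metformin and 53.6 ± 6.36 TPM in control (SD, n = 6 each), at 0.45 on the first scale (limma adjusted p = 0.088). Of the 13 protein-coding genes of mitochondrial DNA, the templates of this machinery, 12 fell and none rose, beside 41.8% lower of all genes. Among them were MT-ND6 at -1.26, MT-CYB at -0.99 and MT-ATP6 at -0.59. After median-ratio scaling 4 fell, beside 25.9% of all genes, and in edgeR 3 fell, beside 26.0%. Scaled, MT-ND6 stood at -0.84, MT-CYB at -0.57 (limma adjusted p = 0.049) and MT-ATP6 at -0.16 (limma adjusted p = 0.484). The 3 genes whose log2(TPM + 1) followed TFAM most closely over the 12 libraries were SRSF11 (Pearson r = 0.998), ACTR3 (r = 0.997) and PAXBP1 (r = 0.997). The 12 points share library, depth and treatment, and the values are a description. Metformin replicate 1 had TFAM at 20.4 TPM, against 59.29 TPM or more in every other library, so this library can set much of r. Correlations without it were not computed.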

How the data were processed

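RNA of 12 LN229 libraries was sequenced, and each has a deposited table of its own. TPM values come from the pipeline the authors used and sum to 1000000 in each library. The RPKM values, per the file headers, are scaled by exon length and library size, and the read counts, as deposited, are whole reads in exons, introns and junctions without normalization. The deposited fractions of intron and unique reads were recomputed from the counts. No source used here names the aligner, the counter or the strand setting. The submitters' processing notes list GRCm38 and mm10, which are mouse builds. The gene identifiers are human, and all 10 loci overlap the same gene in GENCODE 29, so coordinates are those of the files.

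Rows with the same symbol were summed. Following the study's methods (TPM, limma, adjusted p under 0.05), limma 3.58.1 in R 4.3.3 was run with a trended prior on log2(TPM + 1) of genes averaging at least 1 TPM, with Benjamini-Hochberg adjustment over all genes tested. Intron counts and, as an alternative, exon counts were tested with edgeR 4.0.16 (quasi-likelihood, TMM), whose SE was derived from the F statistic. The exon to intron ratio was tested with limma on log2((exon + 1)/(intron + 1)). Scripts were tested on simulated data. Alternatives covered the pseudocount, filter, RPKM, scaling, tool (DESeq2 1.42.0), array weights, a replicate block and leaving out each library. The test on unique exon reads, the junction share of all genes and the scaled and edgeR fits without metformin replicate 1 were added after seeing the data. No pair of replicates agreed within sampling noise. Pairs were compared by the Pearson chi-square per gene of exon reads, which is larger the more the libraries differ. It was 2.355 to 2.835 among control replicates 1, 5 and 6, and 47.68 between control replicates 3 and 6. In metformin it ran from 186.1 to 382.1 between replicate 1 and the others. Between replicate 2 and replicates 3 to 6 it ran from 22.33 to 68.46, and between replicates 4 and 5 it was 3.749. Neither group was thus evenly spread. The 10 genes and the lists were chosen with earlier results of these data known. All 10 genes are named, and of each list up to 3 genes with the smallest limma p in the main direction of its called genes and 1 with the largest called change the other way. SLIRP, ABAT, PPARGC1A, YY1 (chosen after its values were seen), the overlapping and upstream neighbours and the cell type markers were named beside these. Precision is limited by counts of under 20 intron reads in some libraries.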

Additional observations from a re-analysis of the deposited data

Results flagged for a closer look

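Each gene's TPM, intron level and junction share was screened for a library whose gap to the nearest other library, over the range of its group, passed Dixon's 95% limit for 6 samples. Of 60 groups 13 held such a library, where chance gives about 1 in 20, or 3. In 12 of the 13 the library was metformin replicate 1.

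In TPM, metformin replicate 1 had 20.4 for TFAM (70.5 to 98.3 in the other metformin libraries), 11.87 for TFB2M (31.2 to 38.3) and 5.134 for MTERF3 (15.7 to 18.7). In intron reads per 1000000 it had 3.221 for TFAM (39.0 to 58.9), 22.55 for TFB2M (109 to 148) and 133.7 for POLG (418 to 511). The share of exon reads across junctions in this library was 6.888% for TFAM, 18.35% for TFB2M, 3.199% for TWNK, 17.93% for POLG and 54.84% for LRPPRC, each the lowest of its group. For POLRMT it was 92.33%, the highest of its group, where the others had 65.1% to 74.5%. The remaining library was control replicate 4, with 55.36% of TFB1M exon reads across junctions, above 49.4% to 51.2% in the other control libraries. Whether cell state, RNA quality or library preparation set metformin replicate 1 apart was not tested.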

How the results depend on the processing

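Over all alternatives, 610 values of single genes kept their direction and their side of the threshold, 26 gained a call, 12 lost one and 41 changed sign, of which 3 passed the test. Those 3 were MTERF2 under quantile normalization (0.32), and LRPPRC with metformin replicate 1 left out, under median-ratio scaling (0.23) and in edgeR (0.22). MTERF2, -0.23 at first, stood at 0.13 under median-ratio scaling and in edgeR, 0.15 in DESeq2, 0.14 on unique reads, and 0.10 in both fits with metformin replicate 1 left out. LRPPRC, -0.27 at first, stood at 0.15 under median-ratio scaling and on unique reads, 0.14 in edgeR, 0.17 in DESeq2 and 0.10 with array weights. The log2 fold change of TWNK stood at 0.00851 in DESeq2, 0.011 under median-ratio scaling with metformin replicate 1 left out, and that in introns at 0.12 with the factors of exon reads. With 1 library left out in turn, values that changed sign ran from -0.082 to 0.36 for TFAM, from -0.19 to 0.043 for TWNK in introns, from -0.27 to 0.30 for the exon to intron ratio of TFAM and from -0.28 to 0.12 for that of TWNK. In junction share they ran from -2.38 to 2.53 points for TFB1M, from -0.55 to 4.89 for POLRMT, from -2.26 to 0.44 for MTERF1 and from -1.26 to 3.07 for LRPPRC. The falls of MTERF1, MTERF3 and TFB1M passed under every alternative that tested them (MTERF1 was below a filter of 5 TPM). The number of genes called by limma, 5630 at first, was 8598 with array weights and ranged from 4994 to 7507 when 1 library was left out. The number of the 10 genes called, 5 at first, was 8 with RPKM and ranged from 4 to 8 when 1 library was left out. With metformin replicate 1 left out it was also 8 under median-ratio scaling, beside 33.5% of all genes called higher and 33.6% lower, and 8 in edgeR. The shares of all genes called with RPKM and in that edgeR fit are not given here. The counts in introns ranged from 8 to 9 and in the exon to intron ratio from 6 to 7. For both, the shares of all genes with all libraries and without metformin replicate 1 are given above. With the replicate number as a block 5 of the 10 genes were called, as without it. The correlation of deviations between libraries of the same number had mixed signs (-0.64 to 0.72, 3 of 6 positive), so the numbers were not taken to pair the libraries. Depth limits intron values where reads are few, with 1 intron read of TFB1M in metformin replicate 1 and 5 to 16 in the other metformin libraries.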
